A study of Rattus norvegicus with 31 samples.

Results

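The glucocorticoid receptor gene Nr3c1 and 6 genes that act on the receptor or answer to it were followed in white blood cells of adult rats whose dams had been underfed in pregnancy. The 7 genes were taken by name from the array's own gene column: Nr3c1, the co-chaperones Fkbp4 and Fkbp5, and the glucocorticoid-induced genes Tsc22d3, Dusp1, Sgk1 and Klf9. All 7 were on the array, with 15 probes among its 41012, and all 7 were among the 22262 features tested. Peripheral blood mononuclear cells (PBMC) are the lymphocytes and monocytes of blood. CR-L offspring (13 samples) came from dams given 20% less food on days 1 to 12 of pregnancy and received leptin as sucklings until postnatal day 21, in daily doses that climbed to 43.8 ng, after a first dose of 1.0 ng. CR offspring (11 samples) came from dams restricted in the same way and suckled without leptin. WT offspring (7 samples) came from dams that were not restricted, and WT is the title's name for what the protocol calls controls. All groups then ate chow freely for 4 months before blood was drawn, and the labels name no engineered allele. The leptin doses were set at 5 times the daily intake from milk.

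Glucocorticoids leave the adrenal gland under control of the brain, in a daily rhythm and in answer to stress, and they restrain inflammation in white blood cells. Without hormone the receptor waits in the cytoplasm, folded by heat shock proteins and their co-chaperones. Fkbp5 holds it in a state of low hormone affinity, and Fkbp4 exchanges with Fkbp5 when hormone binds and helps carry the receptor to the nucleus. There the receptor raises transcription of genes that include Fkbp5 itself, which closes a negative feedback loop, and it lowers that of many cytokine genes. In leukocytes Tsc22d3 (also called GILZ) restrains NF-kB and AP-1, Dusp1 removes phosphate from MAP kinases, Sgk1 is a kinase downstream of phosphoinositide signalling, and Klf9 is a zinc finger repressor. Dusp1 and Sgk1 also respond to growth factors and cell stress within minutes.

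Nr3c1, Fkbp4 and Fkbp5 had 3 probes each, Tsc22d3 and Klf9 had 2 each, and Dusp1 and Sgk1 had 1 each. One of the Nr3c1 probes was printed in 10 spots. All 15 were well above background in both colours on all 31 arrays, and none was saturated. The probe of highest mean intensity stood for each gene. The positions are those of the array files on the rat build rn4, and which exon or untranslated part each probe lies in was not analysed here. A few of the probes are shown as examples, without the Sgk1 probe and the Fkbp4 probes at bases 1035 and 1264. Those shown lie towards the 5′ end of their transcripts, away from the probe that stands for the gene, or are the only probe of their gene. They are the Fkbp5 probe that starts at base 886 of the transcript (chr20:6647361-6647420, minus strand), the Tsc22d3 probe at base 418 (chrX:128337877-128337936, minus strand), the Klf9 probe at base 778 (chr1:226421727-226421786, plus strand) and the Dusp1 probe at base 832 (chr10:16944342-16944661, plus strand). The Dusp1 probe is 60 bases long and spans 320 bases of genome. The lines below give them 5′ to 3′ as the array files do, with no base singled out.
Fkbp5 probe: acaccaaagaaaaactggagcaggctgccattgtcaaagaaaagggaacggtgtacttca
Tsc22d3 probe: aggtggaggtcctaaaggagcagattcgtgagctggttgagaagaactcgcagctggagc
Klf9 probe: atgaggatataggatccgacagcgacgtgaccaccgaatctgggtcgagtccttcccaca
Dusp1 probe: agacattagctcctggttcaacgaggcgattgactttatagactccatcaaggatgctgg

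On every array a single sample was labelled with Cy5 and set against a common pool labelled with Cy3, which had been mixed from 5 randomly chosen samples per group. A value is the log2 of sample over pool, so values compare groups for 1 gene and say nothing of the level of one gene against another. The 31 arrays lay on 8 slides, with median red intensities of 69.8 to 235. The samples came from at most 16 litters, and the labels used here name neither litter nor sex, so animals that share a dam count as separate samples and p-values may be too small. Defining T cell (6 of 6), B cell (4 of 4 on the array), natural killer cell (5 of 5) and monocyte (5 of 5) markers were well above background on all 31 arrays. So were 4 of 4 erythroid, 3 of 3 platelet and 3 of 5 granulocyte markers, of which Mpo reached it on 8 arrays and Mmp8 on 16. In such bulk samples fewer cells of a type and less RNA per cell cannot be told apart.

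Of the 7 genes, 1 passed the threshold (limma, Benjamini-Hochberg adjusted p under 0.05 over all features) in CR-L against WT, where 3.54% of all features did, 2.15% higher and 1.4% lower. CR against WT had 0 of 7 past it, against 0.467% of all features, 0.355% higher and 0.112% lower. Klf9, Fkbp4 and Fkbp5 had an unadjusted p under 0.05 in CR-L against WT, as did 16.6% of all features, and Fkbp5 in CR against WT, as did 12.4%. In CR-L against CR 0 of 7 passed, as did 0% of all features, with limma adjusted p of at least 0.9998 and 516 features at an unadjusted p under 0.05, or 2.32%. Both comparisons against WT share the same 7 WT arrays. The ranges of the groups overlapped for every one of the 7 genes in every comparison.

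**Figure D1:**
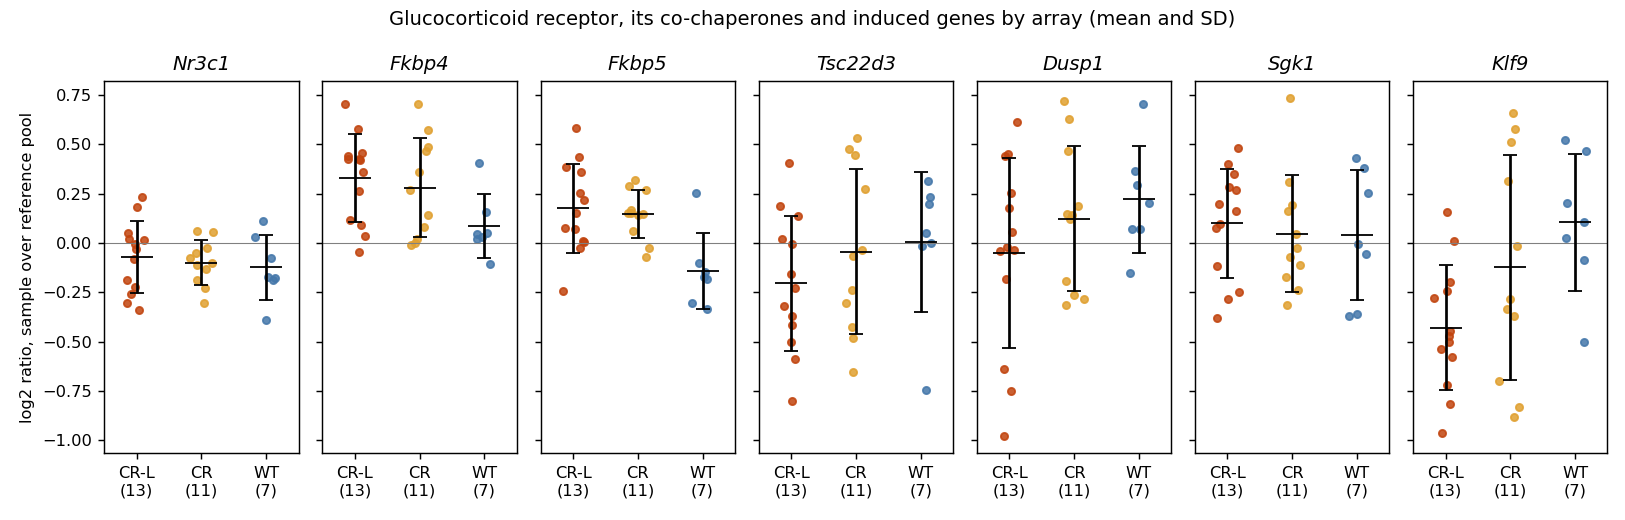
Log2 ratio of each sample over the reference pool for the 7 genes, 1 point per array, with CR-L, CR and WT from left to right and their numbers of arrays in parentheses; the horizontal mark is the mean and the bar the SD. Fkbp5 lies lower in WT, at a median of -0.173, than in CR-L and CR, at medians of 0.153 and 0.151, and all groups overlap.

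The receptor gene itself stood at nearly the same ratio in the 3 groups. Nr3c1 ran from a lowest value of -0.340 through a median of -0.028 to a highest of 0.235 in CR-L. It ran from -0.305 through -0.101 to 0.061 in CR, and from -0.391 through -0.170 to 0.114 in WT. The CR and WT values lie almost wholly inside the CR-L range. The log2 difference was 0.05 for CR-L minus WT (95% interval -0.10 to 0.20, adjusted p = 0.791) and 0.02 for CR minus WT (-0.13 to 0.17, adjusted p = 0.938). For CR-L minus CR it was 0.03 (-0.10 to 0.16). These intervals leave room for a difference of up to 0.20 on the log2 scale in the first and do not show that the groups are alike. All 3 probes gave positive differences in every comparison, of 0.05 to 0.07 for CR-L minus WT and 0.02 to 0.04 for CR minus WT. They start at bases 5831, 6198 and 6156 of the transcript. The mineralocorticoid receptor gene Nr3c2, which binds the same hormone, differed by -0.13 ± 0.083 (SE) for CR-L minus WT and by -0.13 ± 0.086 for CR minus WT, with adjusted p of 0.473 and 0.563. Hsd11b1, whose enzyme regenerates active glucocorticoid from its inactive form, differed by 0.28 ± 0.16 for CR-L minus CR and by -0.17 ± 0.19 for CR minus WT. No change past the threshold was found among the 3 measured of 8 genes of receptor and ligand handling.

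Fkbp5 was the 1 gene of the 7 that rose, and it did so in CR-L against WT. Its values ran from -0.245 through a median of 0.153 to 0.581 in CR-L. In CR they ran from -0.073 through 0.151 to 0.320, and in WT from -0.335 through -0.173 to 0.255. Of the CR-L arrays, 12 of 13 lay above the WT mean and 5 above the highest WT array, and all 11 CR arrays lay above the WT mean. Only WT replicate 1, at 0.255, reached the upper part of the CR-L and CR ranges. Fkbp5 averaged 0.176 ± 0.226 in CR-L (SD, n = 13) and -0.140 ± 0.194 in WT (SD, n = 7), a log2 difference of 0.32 (95% interval 0.14 to 0.49, limma adjusted p = 0.0321) or 1.24-fold. The CR mean was 0.146 ± 0.123 (SD, n = 11), and the CR minus WT difference of 0.29 (0.11 to 0.47) had an unadjusted p of 0.00272 and an adjusted p of 0.123, so it did not pass the threshold. CR-L minus CR was 0.03 (-0.12 to 0.18). By this probe the groups stood, in order of the mean, CR-L, CR and WT, and CR-L and CR did not differ beyond their spread. The Fkbp5 probes at bases 2613 and 886 put CR above CR-L. Their CR-L minus CR differences were -0.04 (95% interval -0.19 to 0.12) and -0.06 (-0.20 to 0.09). Within slides that held both groups, CR-L minus WT was above 0 on 6 of 7 slides, between -0.002 and 0.693, and CR minus WT was above 0 on 7 of 7, between 0.065 and 0.572.

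The CR-L against WT call for Fkbp5 depended on single arrays. It was lost when WT replicate 2, 3, 4, 5 or 6 or CR-L replicate 1 was left out, with adjusted p of 0.0691, 0.0801, 0.0952, 0.0689, 0.0524 and 0.0507, while the difference stayed between 0.282 and 0.382 over all arrays left out in turn. Without WT replicate 1 the difference was 0.382 with adjusted p = 0.0081. The call was also lost with the scanner's own log ratio (adjusted p = 0.0623), the red channel alone (0.0574), the deposited log2 values (0.145) and arrays scaled to one another (0.685). Without WT replicate 1, CR minus WT for Fkbp5 was 0.352 with adjusted p = 0.0496. Means of the T cell, B cell, granulocyte, monocyte, platelet and erythroid marker lists were also used as covariates, without the natural killer cell list. With these covariates, CR-L minus WT for Fkbp5 was 0.261 with limma adjusted p = 0.273. Of those lists, 11 of 11 B cell genes lay below 0 in CR-L minus WT (median -0.27) and 21 of 22 erythroid genes above 0 (median 0.23), and their part in the Fkbp5 difference was not tested beyond that fit. The probe at base 2613 of the transcript passed as well in CR-L against WT (0.30, adjusted p = 0.0479). The probe at base 886, whose sequence is given above, did not (0.14, 95% interval -0.03 to 0.30, adjusted p = 0.412). That makes 2 of the 15 probes past the threshold, where 3.48% of all probes were. In CR against WT 0 of 15 passed, against 0.483% of all probes, and the 3 Fkbp5 probes gave 0.29, 0.34 and 0.19.

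**Figure D2:**
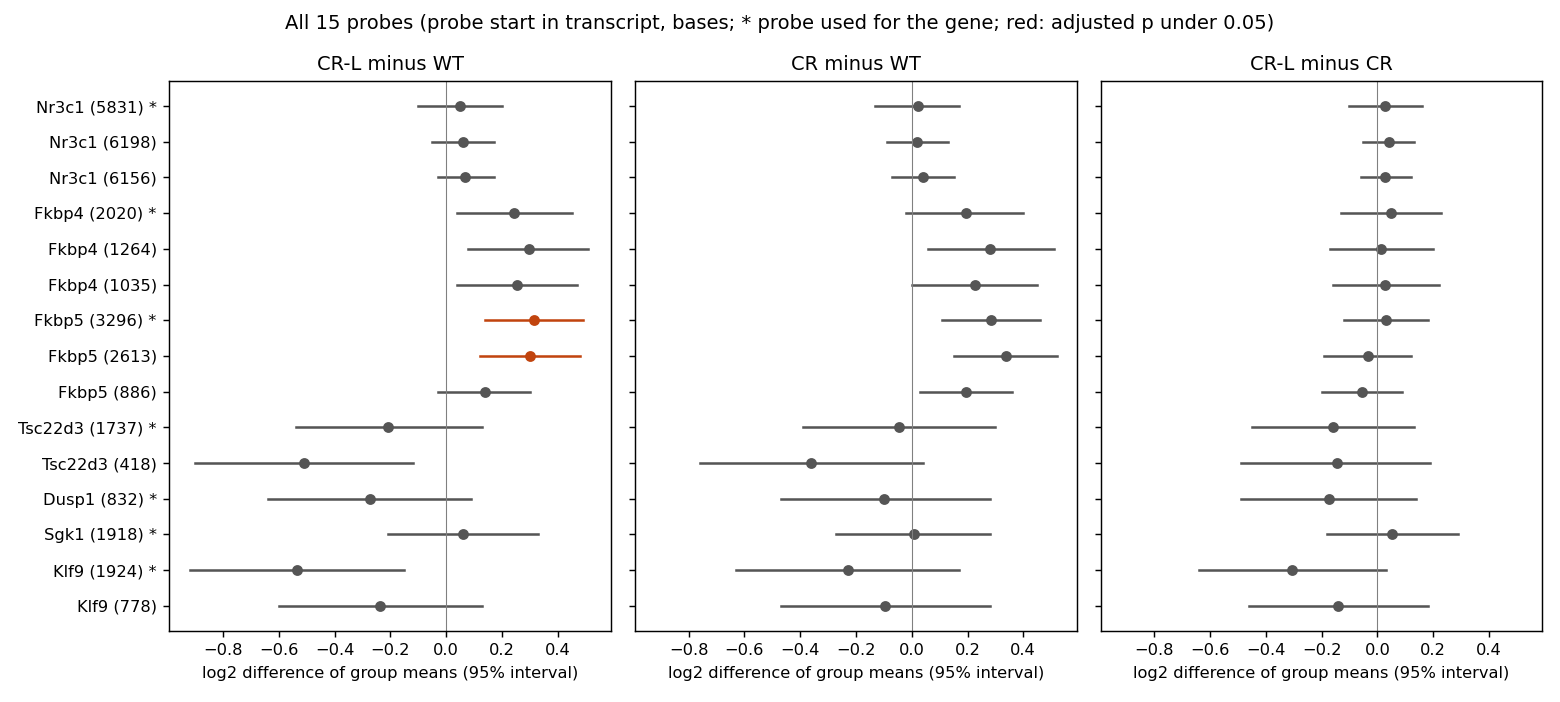
Log2 difference of group means with its 95% interval for each of the 15 probes, in CR-L minus WT, CR minus WT and CR-L minus CR from left to right; the number after each gene is the base of the transcript at which the probe starts, a star marks the probe used for the gene, and red marks an adjusted p under 0.05. The Fkbp5 probes at bases 3296 and 2613 are the 2 in red, both in CR-L minus WT.

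Fkbp4 had positive differences against WT that did not pass the threshold. It ran from -0.047 through a median of 0.419 to 0.705 in CR-L, from -0.008 through 0.268 to 0.704 in CR, and from -0.105 through 0.044 to 0.407 in WT. WT replicate 1 at 0.407 was again the highest WT array, and 7 CR-L arrays lay above it. CR-L minus WT was 0.24 (95% interval 0.04 to 0.45, unadjusted p = 0.0217, limma adjusted p = 0.197), and CR minus WT was 0.19 (-0.02 to 0.40, adjusted p = 0.458). The other 2 probes gave 0.30 and 0.26 for CR-L minus WT and 0.28 and 0.23 for CR minus WT, and neither passed. CR-L minus CR was 0.05 (-0.13 to 0.23).

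Fkbp4 and Fkbp5 belong to a list of 19 chaperones and co-chaperones of the receptor, of which 18 were measured. Like all gene lists here, it was chosen with earlier results of these data known. Several of the 18 moved together from array to array, as Fkbp4 did with Stip1 at r = 0.899 and Hspa8 at 0.873. Counts of them above 0 are therefore not counts of separate observations. In CR-L against WT 17 of the 18 lay above 0 with a median of 0.22, against a median of 0.012 over all features. There 4 of the 18 rose and 0 fell, where 2.15% of all features rose and 1.4% fell. Besides Fkbp5 these were Hspa4 (0.40 ± 0.097, SE), an Hsp110 nucleotide exchange factor for Hsp70, and the Hsp70 co-chaperones Dnajb1 (0.43 ± 0.11) and Dnaja1 (0.67 ± 0.19), with limma adjusted p of 0.0162, 0.0174 and 0.0421. Dnaja1 ran from -0.526 through -0.105 to 0.670 in CR-L and from -0.913 through -0.775 to 0.037 in WT. In CR against WT 17 of 18 lay above 0, with a median of 0.18, and 1 passed, where 0.467% of all features did. It was Hspa4, at 0.50 ± 0.10 (limma adjusted p = 0.0172). Hspa4 ran from -0.007 through 0.243 to 0.680 in CR and from -0.646 through -0.305 to 0.089 in WT. Both probes of Dnaja1 passed in CR-L against WT, whereas the other Dnajb1 probe (0.32, adjusted p = 0.117) did not. The other Hspa4 probe stood at -0.02 ± 0.067 for CR-L minus WT and -0.01 ± 0.069 for CR minus WT, so the Hspa4 calls rest on 1 of its 2 probes. In CR-L against CR 0 of 18 passed, as did 0% of all features, with Dnajb1 at 0.12 ± 0.093.

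**Figure D3:**
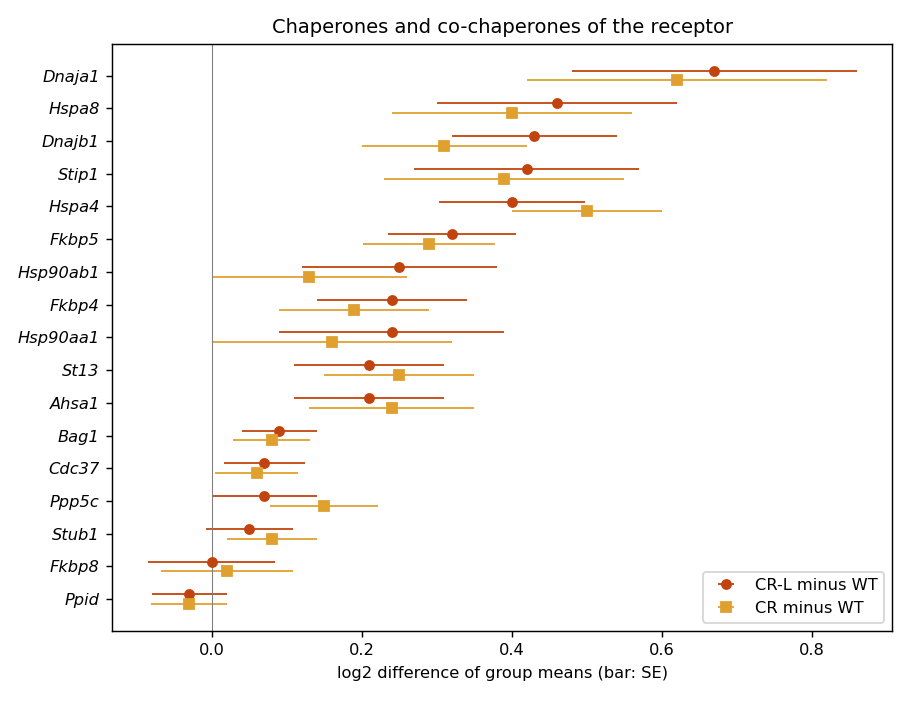
Log2 difference of group means with its SE for 17 of the 18 measured chaperones and co-chaperones of the receptor, with CR-L minus WT as circles above and CR minus WT as squares below in each row. Most values lie right of 0; Dnaja1 has the value furthest to the right, 0.67 for CR-L minus WT, and Ppid lies left of 0.

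The 4 glucocorticoid-induced genes gave no change past the threshold. Klf9 came nearest. It ran from -0.960 through a median of -0.473 to 0.157 in CR-L, from -0.880 through -0.283 to 0.658 in CR, and from -0.499 through 0.108 to 0.520 in WT. Of the CR-L arrays, 12 of 13 lay below the WT mean and 5 below the lowest WT array, and the CR arrays spread over the whole range. CR-L minus WT was -0.54 (95% interval -0.92 to -0.15, unadjusted p = 0.0082, limma adjusted p = 0.12), CR minus WT was -0.23 (-0.63 to 0.17) and CR-L minus CR was -0.31 (-0.64 to 0.03). With slide as a block, CR-L minus WT for Klf9 was -0.623 with adjusted p = 0.0458, and it lay below 0 on 7 of 7 slides, between -1.139 and -0.070. With arrays scaled to one another it was -1.04 with adjusted p = 0.395. The Klf9 probe at base 778 gave a smaller difference, -0.24 (-0.60 to 0.13).

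Tsc22d3 stood at -0.798, -0.230 and 0.403 in CR-L (lowest, median and highest), at -0.651, -0.066 and 0.533 in CR, and at -0.746, 0.051 and 0.312 in WT. The 3 ranges nearly coincide, with WT replicate 3 as the lone WT array below -0.1. CR-L minus WT was -0.21 (95% interval -0.54 to 0.13, limma adjusted p = 0.59), CR minus WT was -0.05 (-0.40 to 0.30) and CR-L minus CR was -0.16 (-0.45 to 0.13). The Tsc22d3 probe at base 418 gave -0.51 (-0.90 to -0.12, unadjusted p = 0.0122, adjusted p = 0.149) for CR-L minus WT and -0.36 (-0.76 to 0.04) for CR minus WT, over 2 times the size of the differences at base 1737. The 2 Tsc22d3 probes correlated at 0.735 over the 31 arrays.

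Dusp1 ran from -0.980 through a median of -0.022 to 0.612 in CR-L, from -0.316 through 0.140 to 0.722 in CR, and from -0.153 through 0.204 to 0.703 in WT. Its highest arrays were alike in the 3 groups, while 4 CR-L and 4 CR arrays lay below the lowest WT array. CR-L minus WT was -0.27 (95% interval -0.64 to 0.09, limma adjusted p = 0.486), CR minus WT was -0.10 (-0.47 to 0.28) and CR-L minus CR was -0.17 (-0.49 to 0.14). Sgk1 ran from -0.380 through 0.163 to 0.483 in CR-L, from -0.312 through -0.024 to 0.735 in CR, and from -0.368 through -0.003 to 0.429 in WT. Its differences were 0.06 (-0.21 to 0.33) for CR-L minus WT, 0.01 (-0.27 to 0.28) for CR minus WT and 0.05 (-0.18 to 0.29) for CR-L minus CR. CR replicate 1, at 0.735, was the highest Sgk1 array of all.

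Further genes known to be induced by glucocorticoids were read beside these 4. Of 39 measured of 44 listed, 1 rose (Fkbp5) and 2 fell in CR-L against WT, where 2.15% of all features rose and 1.4% fell. The list's median was -0.051, against 0.012 over all features. The 2 that fell were Irs2, an adaptor of the insulin receptor, at -0.56 ± 0.14 (SE, limma adjusted p = 0.0214), and Nfkbia, the inhibitor that holds NF-kB in the cytoplasm, at -0.64 ± 0.17 (adjusted p = 0.0263). Nfkbia ran from -1.005 through -0.209 to 0.476 in CR-L and from 0.116 through 0.478 to 0.679 in WT. Irs2 had 4 other probes, at -0.14, -0.13, -0.09 and -0.01 for CR-L minus WT, and none of them passed. Of the 39, 0 passed in CR against WT, where 0.467% of all features did. There 24 of the 39 lay below 0, and Irs2 stood at -0.44 ± 0.15. Acsl1, which activates long-chain fatty acids, was at 0.15 ± 0.083 for CR-L minus CR.

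Of 19 measured of 25 listed genes that glucocorticoids are known to repress, 13 lay below 0 in CR-L against WT. Their median was -0.17, against 0.012 over all features. Of the 19, 3 fell and 0 rose, where 1.4% of all features fell and 2.15% rose. The 3 that fell were the chemokine Ccl3 (-0.72 ± 0.15, SE), the adhesion molecule Icam1 (-0.54 ± 0.13) and the cytokine Tnf (-0.22 ± 0.062). Their limma adjusted p was 0.00467, 0.015 and 0.0407. Ccl3 ran from -1.052 through -0.141 to 0.410 in CR-L and from -0.011 through 0.605 to 0.712 in WT. Icam1 ran from -0.935 through -0.102 to 0.171 in CR-L and from 0.110 through 0.285 to 0.767 in WT. In CR against WT 0 of 19 passed, where 0.467% of all features did. Icam1 stood there at -0.51 ± 0.13 (limma adjusted p = 0.0682) and Ccl3 at -0.55 ± 0.15 (adjusted p = 0.0863). In CR-L against CR the chemokine Ccl2 stood at -0.48 ± 0.22 and the prostaglandin synthase Ptgs2 at 0.12 ± 0.083, and neither passed.

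Of 22 receptor coregulators measured of 22, 0 passed in any comparison. Of all features, 3.54%, 0.467% and 0% passed in CR-L against WT, CR against WT and CR-L against CR. The coregulators' medians there were 0.018, 0.011 and 0.0043. The acetyltransferase Ep300 had the smallest p in CR-L against WT, at 0.14 ± 0.056 (SE), followed by Trim28 at 0.14 ± 0.073. For CR against WT they were Med14, a Mediator subunit, at 0.16 ± 0.071 and Trim28 at 0.16 ± 0.075. In CR-L against CR they were Smarcd1, a chromatin remodelling subunit, at 0.08 ± 0.047 and Tsg101 at 0.06 ± 0.047. Circadian clock genes share regulation with the glucocorticoid rhythm, and the hour at which blood was drawn is not given in the sources used here. Of 16 clock genes measured of 18, 1 fell in CR-L against WT, where 1.4% of all features fell. It was Nr1d2 (REV-ERB beta, a repressor of the clock) at -0.28 ± 0.060 (limma adjusted p = 0.00626), and both its probes passed. Nr1d2 ran from -0.257 through 0.065 to 0.175 in CR-L and from 0.120 through 0.324 to 0.405 in WT. Per1, a clock gene that glucocorticoids induce, stood at -0.41 ± 0.14 (adjusted p = 0.0935) there and did not pass. Against WT, CR had Nr1d2 at -0.21 ± 0.061 and Rora at 0.34 ± 0.10. In CR-L against CR Bhlhe40 was at 0.15 ± 0.095 and Per1 at -0.17 ± 0.12, none past the threshold. In all, 10 of 115 measured pathway genes passed in CR-L against WT, where 3.54% of all features did. In CR against WT 1 of the 115 passed, where 0.467% of all features did. The lists were chosen with earlier results of these data known, so these counts beside the shares are no independent test. The 10 became 0 with arrays scaled to one another or with the cell list means as covariates, and 5, 3, 6 and 5 without WT replicates 2, 4, 5 and 6. The 1 became 0 without WT replicate 4 and 2 without WT replicate 1 or CR-L replicate 6.

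How the 7 genes moved together from sample to sample was read from each array's deviation from its group mean, over 31 arrays that share 1 reference pool. Of the 21 pairs, 7 had an adjusted p under 0.05 (two-sided permutation of Pearson's r with 100000 resamples within the family of 21), and all 7 were positive. The 4 induced genes Tsc22d3, Dusp1, Sgk1 and Klf9 accounted for 6 of them, which are all the pairs those 4 can form, with r of 0.451 to 0.781 and Spearman's rho of 0.513 to 0.774. The other pair was Fkbp4 with Fkbp5 (r = 0.439, rho = 0.469, permutation p = 0.013 and 0.00847, adjusted p = 0.039 and 0.0254). Its r was 0.438 within CR-L, 0.351 within CR and 0.753 within WT, and 0.344 without the 2 arrays farthest from the median of Fkbp4. Fkbp5, though itself induced by glucocorticoids, correlated with the 4 induced genes at 0.149 to 0.210, none past the threshold. Nr3c1 had no pair past the threshold, the strongest being Tsc22d3 (r = 0.364, adjusted permutation p = 0.104). These values depended on the probe. Over all probes, r was 0.113 to 0.435 for Fkbp5 with Tsc22d3 and 0.264 to 0.486 for Fkbp4 with Fkbp5. It was 0.314 to 0.641 for Fkbp4 with Tsc22d3 and -0.165 to 0.364 for Nr3c1 with Tsc22d3. Fkbp5 reached 0.291 with Dusp1, 0.234 with Sgk1 and 0.332 with Klf9. The probe pairs were not tested. The share of all pairs of measured genes that would pass was not computed, so the count of 7 pairs has no such share beside it.

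**Figure D4:**
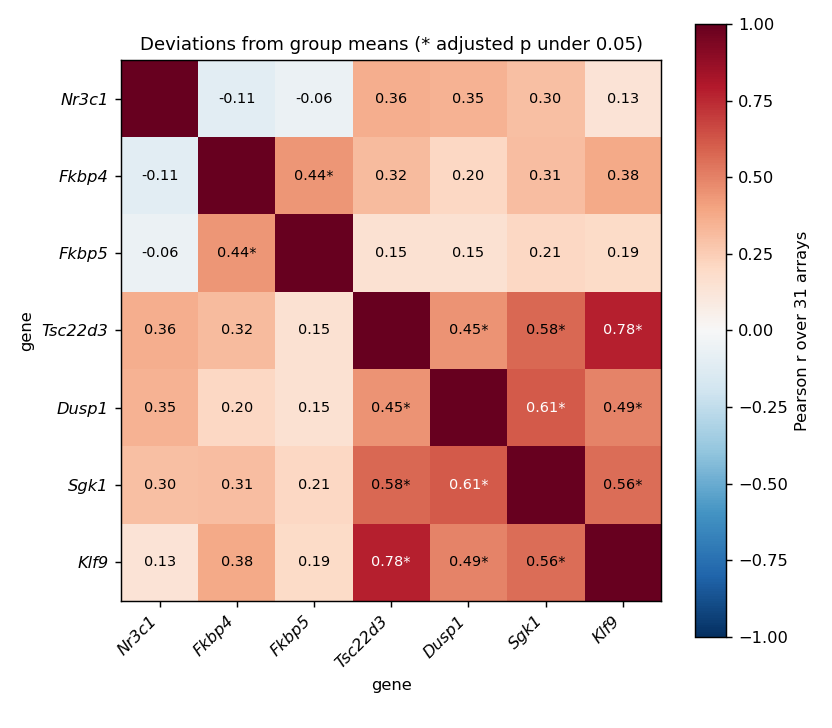
Pearson r between each pair of the 7 genes over 31 arrays, after each group's mean was taken away; blue is negative, red positive, and a star marks an adjusted permutation p under 0.05. The 4 genes Tsc22d3, Dusp1, Sgk1 and Klf9 form a block of stars at the lower right with r of 0.451 to 0.781.

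Tsc22d3 and Klf9 were the pair most alike, with r = 0.781 and rho = 0.774 (permutation p = 1e-05 for each, the smallest that the resamples can give, adjusted p = 0.00021 for each). The value was 0.493 within CR-L, 0.966 within CR and 0.770 within WT, and 0.777 with slide taken out as well as group. Without the 2 arrays farthest from the median of Tsc22d3 it was 0.820, and the 4 pairs of their probes gave 0.704 to 0.861. Leaving out each array in turn kept it between 0.755 and 0.835. The CR arrays, which spread from -0.651 to 0.533 in Tsc22d3 and from -0.880 to 0.658 in Klf9, lie close to a single line. Dusp1 and Sgk1 followed at r = 0.615 and rho = 0.652 (permutation p = 0.00032 and 0.0001, adjusted p = 0.00336 and 0.00105), with 0.612 in CR-L, 0.719 in CR, 0.558 in WT and 0.595 with slide taken out. Without the 2 farthest arrays this was 0.669. The other 4 pairs of induced genes stood at 0.417 to 0.522 without their 2 farthest arrays.

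CR replicate 1 was the highest CR array in 5 of the 7 genes, and WT replicate 3 the lowest WT array in 5 of the 7. With both left out, 2 of the 21 pairs had an adjusted p under 0.05: Tsc22d3 with Klf9 (r = 0.731, adjusted p = 0.00042) and Dusp1 with Sgk1 (r = 0.572, adjusted p = 0.0135). The 4 remaining pairs of induced genes stood at r of 0.410 to 0.457 with adjusted p = 0.0677 for each, as did Fkbp4 with Fkbp5 at 0.404. With arrays left out one at a time, Tsc22d3 with Dusp1 lost its call in 8 of 31 cases and Fkbp4 with Fkbp5 in 11 of 31. The other 5 pairs kept theirs in all 31. With slide taken out as well as group, 8 pairs had an adjusted p under 0.05, from a permutation that treats the 31 residuals as free. Fkbp4 then joined 3 of the induced genes, with r = 0.694 for Tsc22d3, 0.687 for Klf9 and 0.496 for Sgk1 (adjusted p = 0.000105, 0.00021 and 0.0128), against 0.315, 0.378 and 0.308 with slide left in. Tsc22d3 with Dusp1 dropped to 0.287 (adjusted p = 0.164) and Fkbp4 with Fkbp5 to 0.402 (adjusted p = 0.0542), so neither passed. The other 5 pairs of induced genes passed, at 0.428 to 0.777. Fkbp5 with Tsc22d3 rose from 0.153 to 0.387 (adjusted permutation p = 0.0591). With Dusp1, Sgk1 and Klf9, Fkbp5 stood at 0.232, 0.17 and 0.259, and none of these Fkbp5 pairs passed.

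**Figure D5:**
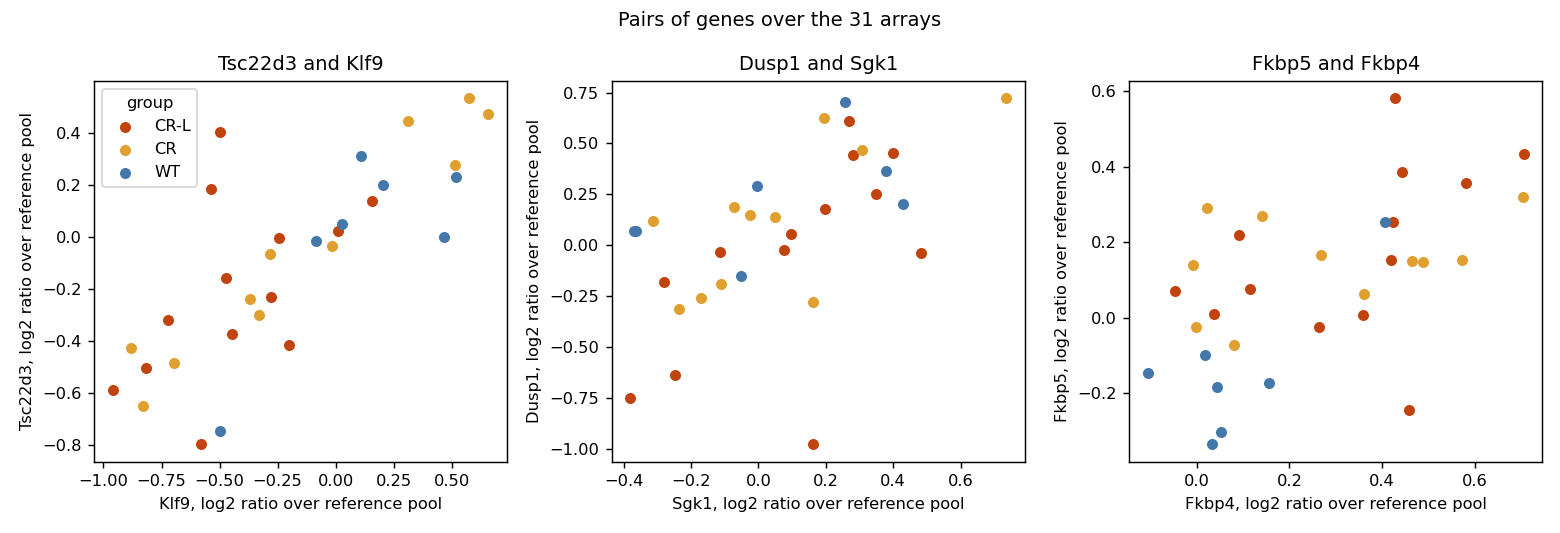
Log2 ratio over the reference pool of 1 gene against another, 1 point per array, with CR-L in red, CR in yellow and WT in blue. Tsc22d3 climbs with Klf9 (left; r = 0.781 after group means were taken away), Dusp1 with Sgk1 (middle; 0.615) and, more loosely, Fkbp5 with Fkbp4 (right; 0.439).

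The 7 genes were also set against 9 list means (7 blood cell types, clock genes and immediate early genes), 63 relations in all, of which 4 had an adjusted permutation p under 0.05 for Pearson's r and 6 for Spearman's rho. The share of all features that would pass against these lists was not computed. The 27 immediate early genes other than Dusp1, a group switched on within minutes of cell stimulation or handling, moved with Dusp1 at r = 0.769 and rho = 0.813 (p = 1e-05 for each, adjusted p = 0.00063 for each). Within CR-L, CR and WT it was 0.771, 0.758 and 0.842, and without the 2 farthest arrays 0.707. Sgk1 moved with the 28 immediate early genes, Dusp1 among them, at r = 0.710 and rho = 0.717 (p = 3e-05 and 2e-05, adjusted p = 0.000945 and 0.00063), and without the 2 farthest arrays at 0.649. The list's mean ran from -0.621 through -0.006 to 0.369 in CR-L, from -0.288 through -0.107 to 0.300 in CR, and from -0.095 through 0.165 to 0.308 in WT. The part of cell handling in the spread of Dusp1 and Sgk1 was not tested.

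Dusp1 also moved with 14 monocyte genes, at r = 0.650 and rho = 0.532 (permutation p = 0.00013 and 0.00238, adjusted p = 0.00273 and 0.0316). Its r was 0.853 within CR-L, 0.0712 within CR and 0.767 within WT, a difference between groups that was not tested. It was 0.473 without the 2 farthest arrays, CR-L replicates 5 and 6. The mean of the monocyte genes ran from -0.539 through 0.028 to 0.460 in CR-L, from -0.374 through -0.052 to 0.232 in CR, and from -0.167 through 0.106 to 0.292 in WT. Sgk1 moved with the 16 clock genes at r = 0.546 and rho = 0.534 (permutation p = 0.00137 and 0.00251, adjusted p = 0.0216 and 0.0316), with 0.730 in CR-L, 0.409 in CR and 0.551 in WT. Without the 2 farthest arrays it was 0.551, and the call was lost without CR replicate 1, CR-L replicate 6, WT replicate 3 or WT replicate 4 (adjusted p of up to 0.0748). By rho, 6 of the 63 relations passed, and the further 2 were negative, between the 11 platelet genes and Sgk1 (rho = -0.564, adjusted p = 0.0185; r = -0.440, adjusted p = 0.0901) and Dusp1 (rho = -0.498, adjusted p = 0.047; r = -0.460, adjusted p = 0.0901). The r for Sgk1 was -0.475 within CR-L, -0.507 within CR and -0.530 within WT, and that for Dusp1 was -0.390 within CR-L, -0.555 within CR and -0.966 within WT. Without the 2 farthest arrays, CR-L replicates 3 and 7, r was -0.520 for Sgk1 and -0.439 for Dusp1. The mean of the platelet genes ran from -2.881 through -0.104 to 0.788 in CR-L, from -0.559 through -0.085 to 0.769 in CR, and from -1.525 through -0.300 to 0.261 in WT. With slide taken out 10 relations passed by r: these 6, Dusp1 with granulocyte genes (0.561), Fkbp4 with erythroid genes (0.590), Klf9 with immediate early genes (0.513) and Klf9 with natural killer cell genes (-0.551).

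The stretches before the genes' starts were searched in RefSeq windows of the build GRCr8 that begin 250 bases before a gene's start and end 50 after it. All 7 genes matched by symbol, with 12 windows among 33469. Capitals mark matches, on either strand, to TGACG, the short form of the cAMP response element, which is part of the full element TGACGTCA. TGACG occurred in 21.2% of all windows and TGACGTCA in 1.83%. The windows of Dusp1, Klf9 and Tsc22d3 shown are those that held a match, and none of the 3 windows of Sgk1, which moved with these genes too, nor any of Nr3c1, Fkbp4 and Fkbp5 held one. Whether the matches have any relation to how the genes moved together was not tested.
Dusp1, chr10:17184603-17184852, plus strand: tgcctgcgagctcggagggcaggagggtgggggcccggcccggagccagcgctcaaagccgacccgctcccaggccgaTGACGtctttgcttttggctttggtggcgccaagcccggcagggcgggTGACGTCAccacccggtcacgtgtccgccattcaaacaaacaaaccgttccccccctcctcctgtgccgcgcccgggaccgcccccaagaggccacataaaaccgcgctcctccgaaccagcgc
Klf9, chr1:230126396-230126645, plus strand: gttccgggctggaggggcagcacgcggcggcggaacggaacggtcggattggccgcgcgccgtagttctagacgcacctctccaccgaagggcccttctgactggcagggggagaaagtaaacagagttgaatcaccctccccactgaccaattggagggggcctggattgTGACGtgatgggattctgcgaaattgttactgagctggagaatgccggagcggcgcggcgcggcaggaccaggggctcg
Tsc22d3, chrX:109010035-109010284, minus strand: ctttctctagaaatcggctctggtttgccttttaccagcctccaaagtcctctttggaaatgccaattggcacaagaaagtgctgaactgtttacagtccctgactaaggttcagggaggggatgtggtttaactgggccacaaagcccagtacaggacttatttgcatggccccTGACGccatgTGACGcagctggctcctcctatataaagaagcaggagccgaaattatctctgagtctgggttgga
Dusp1 held the full element 124 bases before its start and a further TGACG 172 bases before it. Klf9 held TGACG 79 bases before its start, and this Tsc22d3 window, 1 of 3, held it 75 and 65 bases before. The core hexamer of the glucocorticoid response element, AGAACA, occurred in 20.7% of all windows and none of the 12 windows held it. These letters were searched on both strands in these windows alone.

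For each of the 7 genes, the 3 features with an established symbol and the highest Pearson r over the 31 arrays are given as a description. Nr3c1 was most like Vps35, a subunit of the retromer that sorts endosomal cargo (0.823), the kinase gene Oxsr1 (0.811) and Bcl10, a signalling adaptor of lymphocyte antigen receptors (0.802). Fkbp4 was most like Stip1, the co-chaperone that links Hsp70 to Hsp90 (0.915), Hspa8, the constitutive Hsp70 (0.894), and the Hsp90 co-chaperone Chordc1 (0.888). Fkbp5 was most like the peptidase gene Prep (0.794), the mitochondrial ribosome gene Mrps25 (0.777) and C12h12orf76 (0.754). Tsc22d3 was most like Zfp36l2, which destabilises AU-rich messenger RNA (0.781), Metap1 (0.723) and Socs1, a feedback inhibitor of cytokine receptors (0.698). Dusp1 was most like Cebpb (0.799), Fos (0.796) and Tnfaip3 (0.783), all genes of the early inflammatory response. Sgk1 was most like Bambi (0.824), Pcna (0.809) and Phlda1 (0.804), and Klf9 like Herpud1, a gene of the endoplasmic reticulum stress response (0.850), Gart (0.817) and Tnfaip3 (0.817).

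Among the other chaperones, after group means were taken away, Fkbp4 moved with Stip1 at r = 0.899, with Hspa8 at 0.873, with St13 at 0.850, with Hsp90aa1 at 0.790 and with Dnaja1 at 0.787. Fkbp5 moved with the same genes at 0.439, 0.561, 0.402, 0.460 and 0.432. Others did so less or not at all. Hspa4 was at 0.224 with Fkbp4 and 0.10 with Fkbp5. Among those lower still with Fkbp4 were Fkbp8 (0.146), Bag1 (0.0841) and Ppp5c (-0.11), at -0.293, 0.0605 and -0.1 with Fkbp5. Stub1, the ubiquitin ligase that clears Hsp90 clients, was at -0.388 with Fkbp4 and -0.196 with Fkbp5.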

How the data were processed

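RNA of rat PBMC was hybridised to 2-colour arrays, 1 per sample, with a pooled reference in Cy3 and no dye swap, per the labels. The authors deposited scanner files whose spot and background intensity came from Agilent Feature Extraction 10.7.3.1, per the submitters' processing notes. Their log10 ratio of red over green is dye-normalized, per the file headers. The deposited series table holds log2 values that tracked log2 red intensity (lowest correlation 0.993), with every column's median at 8.166. Its further normalization is not given in the sources used here.

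Mean intensities were corrected with limma 3.58.1 in R 4.3.3 (normexp on the median local background, offset 50), then normalized by loess within arrays. Control spots (1639 of 45018) and outlier spots (0.408% of values) were left out, spots of a probe were averaged, and probes were kept where at least 7 arrays had them well above background in red (26721 of 41012). The probe of highest mean intensity stood for a gene. Names were updated through a RefSeq table of GRCr8, used for names alone, and 17616 probes had no symbol.

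Groups were taken from sample titles. They were compared with lmFit and eBayes over all 31 arrays, two-sided, with Benjamini-Hochberg adjustment over 22262 features or 26721 probes. The number of arrays limits the precision. Correlations used numpy 2.4.6, with 100000 permutations. The scripts were checked on simulated data. Alternatives were background correction, scaling, the scanner's ratio, the series table, red alone, the filter, slide or replicate number as blocks, cell list means as covariates, and each array left out. CR replicate 1 and WT replicate 3 were left out together after the data had been seen.

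The 7 genes and all gene lists were chosen with earlier results of these data known. Named beside the 7 were all pathway genes past the threshold, the 2 of smallest p per list and comparison, and the 3 features most like each gene. One listed chaperone gene that this rule takes is not reported here.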

Additional observations from a re-analysis of the deposited data

Results flagged for a closer look

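In WT, where Dixon's test of the lowest and highest array was run for each of the 7 genes, 2 arrays stood apart from the rest, and chance marks about 1 in 20 such groups. The groups of 11 and 13 arrays were not tested. Tsc22d3 stood at -0.746 in WT replicate 3, with the other 6 WT arrays between -0.016 and 0.312. Fkbp5 stood at 0.255 in WT replicate 1, with the other 6 between -0.335 and -0.099. Without WT replicate 1, Fkbp5 in CR minus WT was 0.352 (limma adjusted p = 0.0496). Without WT replicate 3, Tsc22d3 was at -0.332 in CR-L minus WT and at -0.172 in CR minus WT, neither past the threshold.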

How the results depend on the processing

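Over 10 other settings, CR-L against CR gave 0 features past the threshold in each. CR against WT gave 104 features and CR-L against WT 789. For CR against WT the scanner's log ratio gave 65 (38 higher), scaling between arrays 2, the deposited log2 values 0, red alone 37 (17 higher, 20 lower), no filter on dim probes 66, all arrays above background 170 and no background correction 135 (89 higher). For CR-L against WT scaling gave 120, the deposited log2 values gave 495 and cell list means as covariates 119 (98 higher). The median of all features moved by less than 0.1 in each.

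Of the 7 genes, 0 passed in CR-L against WT with the scanner's log ratio (Fkbp5 0.303, adjusted p = 0.0623), scaling (0.241, 0.685), the deposited log2 values (0.312, 0.145), red alone (0.341, 0.0574) or the covariates (0.261, 0.273), and 2 with slide as a block. By probe, 1 passed there with no filter in place of 2, and 1 in CR against WT with slide as a block. Pathway genes past the threshold numbered 1 of 115 in CR against WT and 0 with scaling or the series table. In CR-L against WT they numbered 10, with 0 under scaling or covariates and 6 with red alone. The causes were not tested.

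Replicate numbers did not pair the samples: 7 of 25 same-number pairs had a correlation over 0.1, the range was -0.425 to 0.445, and 3 samples were closest to their own number. The replicate block gave 241 features (140 higher, 101 lower), 4 pathway genes and 1 of the 7 genes in CR against WT (Fkbp5 0.322, adjusted p = 0.0485). With that block Nr3c1 turned to -0.0454 in CR minus WT, -0.000812 in CR-L minus CR and -0.0462 in CR-L minus WT, and Sgk1 to -0.0694 in CR minus WT.

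The other turns of sign were of differences near 0. In CR minus WT Sgk1 was -0.0199 with no background correction, -0.0338 with the scanner's ratio, -0.12 with scaling and -0.0161 with the series table. Scaling also turned Tsc22d3 to 0.0759 and Dusp1 to 0.0154, the covariates Dusp1 to 0.101, and the series table Nr3c1 to -0.00494. In CR-L minus CR the covariates turned Nr3c1 to -0.0354 and Sgk1 to -0.122. In CR-L minus WT Sgk1 was -0.112 with scaling and -0.0924 with covariates.

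With arrays left out in turn, features numbered 17 (without WT replicate 4) to 207 (without CR replicate 9) in CR against WT, 0 in CR-L against CR, and 420 (without WT replicate 4) to 1100 (without CR-L replicate 10) in CR-L against WT. The 7 genes gave 0 to 1 in both comparisons against WT, and pathway genes 0 to 2 in CR against WT and 3 to 12 in CR-L against WT. Ranges that crossed 0 were Nr3c1 (-0.022 to 0.0621), Tsc22d3 (-0.172 to 0.0134) and Sgk1 (-0.0608 to 0.0728) in CR minus WT, Fkbp5 in CR-L minus CR (-0.00397 to 0.0649) and Sgk1 in CR-L minus WT (-0.00776 to 0.125). Pairs of genes past the threshold numbered 5 to 8, and 2 without CR replicate 1 and WT replicate 3 together. Relations with list means numbered 3 to 10, and 10 with slide and group means taken out.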
